A study of Arabidopsis thaliana with 12 samples.

Results

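The genes described here are 10 loci annotated as plant invertase/pectin methylesterase inhibitors in Arabidopsis thaliana, out of 33602 genes in the count files. They were selected by locus from a list that includes AT4G25250, which is on it because its level fell in Col-0 seedlings after isoxaben. The Col-0 values of that gene are therefore given as a description with no test. Of the 10 genes, 7 had enough counts to be tested and 3 did not. RefSeq annotates all 10 as members of the inhibitor family, and gives an inhibitor name for 3 of them, namely PMEI1 for AT1G48020, PMEI2 for AT3G17220 and PMEI6 for AT2G47670.

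Homogalacturonan, the main pectin of primary cell walls, is secreted with many of its acid groups methylated, and pectin methylesterases remove those groups in the wall. Demethylated chains can be cross-linked by calcium or opened to degradation, so the enzymes can stiffen or loosen a wall. The inhibitors are small secreted proteins that bind a methylesterase and block it, and they have been studied in growing hypocotyls, shoot meristems, pollen tubes, seed coats and in defence. Isoxaben is a herbicide that stops cellulose synthesis.

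The libraries came from whole seedlings aged 6 days, grown in shaken liquid medium with 16 h of light and 8 h of dark. The genotypes were the wild type Col-0 and, in the same ecotype, the isoxaben-resistant mutant ixr1-1, which carries a changed cellulose synthase gene CESA3. Treatment with isoxaben at 600 nM or with the solvent DMSO lasted 1 h. This gave 4 groups of 3 libraries: Col-0 with DMSO, Col-0 with isoxaben, ixr1-1 with DMSO and ixr1-1 with isoxaben. Each treated flask and its mock flask received seedlings split from 1 flask, per the labels, which leave unsaid whether replicates were independent cultures. The p-values hence refer to the spread among libraries, which may be technical. Library totals ran from 8521491 to 20658035 counts. In RNA from whole seedlings, fewer cells that express a gene and less RNA per cell cannot be told apart.

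Markers of root and shoot were present in every group. The summed level of 8 root genes lay between 86.5 and 121 CPM (counts scaled to the size of the library by TMM factors), and that of 8 shoot genes between 20485 and 23014 CPM in Col-0 and between 16593 and 20141 CPM in ixr1-1. Of 7 tested shoot genes, 1 was lower in ixr1-1 with DMSO, RBCS1A, and 3 with isoxaben, RBCS1A, LHCA1 and LHCB2.1. Over all tested genes 7.42% were lower with DMSO and 5.85% with isoxaben (edgeR adjusted p under 0.05). Summed levels of 9 seed storage and oil body genes were 0.287 to 1.31 CPM in the 6 Col-0 libraries and 107 to 706 CPM in the 6 ixr1-1 libraries, and the libraries numbered 1 were the lowest in both ixr1-1 groups. The shoot meristem gene CLV3 had no count in Col-0 with DMSO, and the storage protein gene CRC had none in either Col-0 group. The shoot and seed storage levels run with the genotype, and their part in any genotype difference below was not tested.

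The promoters of 3 inhibitor genes are shown because the results turn on these genes: AT4G25250 for its level in treated Col-0, and AT5G20740 and AT3G47380 for their difference between genotypes. Each sequence is the 250 bases before the RefSeq start of the gene on TAIR10.1, 5′ to 3′ on the gene's strand, and none of these windows contains another gene. Capitals mark the core of the W-box, TTGAC, to which WRKY factors bind, found here as its reverse complement GTCAA, and the GA repeat GAGAGA.
AT4G25250, chr4:12934312-12934561, plus strand: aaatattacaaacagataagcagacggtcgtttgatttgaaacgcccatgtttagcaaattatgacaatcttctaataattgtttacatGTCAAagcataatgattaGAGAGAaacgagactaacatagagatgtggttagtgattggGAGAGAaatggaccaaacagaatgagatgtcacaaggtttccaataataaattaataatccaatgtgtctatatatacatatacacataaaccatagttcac
AT5G20740, chr5:7026754-7027003, minus strand: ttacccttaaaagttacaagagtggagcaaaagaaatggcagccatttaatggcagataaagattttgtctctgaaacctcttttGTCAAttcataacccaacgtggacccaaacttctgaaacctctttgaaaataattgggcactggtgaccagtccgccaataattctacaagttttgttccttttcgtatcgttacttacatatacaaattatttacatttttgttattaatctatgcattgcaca
AT3G47380, chr3:17457364-17457613, plus strand: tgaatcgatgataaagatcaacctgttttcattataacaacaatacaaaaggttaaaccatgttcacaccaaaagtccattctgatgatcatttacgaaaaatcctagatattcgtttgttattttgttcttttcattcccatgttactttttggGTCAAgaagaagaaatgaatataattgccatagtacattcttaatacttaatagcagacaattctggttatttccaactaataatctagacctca

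In AT4G25250 the W-box core lay 161 to 157 bases before the start, with GA repeats at 143 to 138 and 102 to 97 bases. The cores in AT5G20740 and AT3G47380 lay 165 to 161 and 95 to 91 bases before the start. On either strand, TTGAC was found in the window of 5 of the 10 inhibitor genes, the others being AT1G48020 and AT3G17220, and in 44.9% of 27555 promoters of the same length. GAGAGA was found in 3 of the 10 and in 20.5% of all promoters. The E-box CANNTG was found in 6 of the 10 and in 55.2%, and TATAAA in 3 of the 10 and in 47.3%. The G-box CACGTG, which is also an E-box, was found in none of the 10 and in 6.46% of all promoters. The windows of AT4G25260, AT1G48020 and AT3G17220 overlap a neighbouring gene. A match states only that these letters occur in the window.

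The inhibitor genes differed widely in level. Per kb of exon, the mean over the 12 libraries was 33.5 CPM for AT4G25260, 15.7 for AT4G25250, 11.6 for AT5G20740, 6.58 for AT5G62360, 5.23 for AT1G62770, 3.80 for AT3G47380, 1.01 for AT2G47670 and 0.490 for AT1G62760. AT1G48020 followed with 0.0328 CPM per kb, and AT3G17220 had no count. In this order the library ranges of neighbours were separate at 3 steps, between AT4G25260 and AT4G25250, between AT3G47380 and AT2G47670, and between AT1G62760 and AT1G48020. At the other steps they overlapped. AT4G25250 was above AT5G20740 in 6 of the 12 libraries.

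Within the family these levels spread from near the top to the bottom. The RefSeq annotation of 112 genes names the methylesterase inhibitor family. Of these, 78 have a coding sequence of at most 939 bases, and the other 34 start at 1494 bases. The short ones were taken, by length alone, as the form without a methylesterase domain, and domains were not searched. Of the 77 short genes in the files, AT4G25260 was the fourth highest per kb, behind AT5G62350 with 86.9, AT4G12390 with 66.7 and AT1G23205 with 56.6 CPM per kb. No count fell on 37 of the 77 genes in any library, AT3G17220 among them. A level of at least 1 CPM per kb was reached by 20 of the 77, including 7 of the 10 genes described here.

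**Figure D1:**
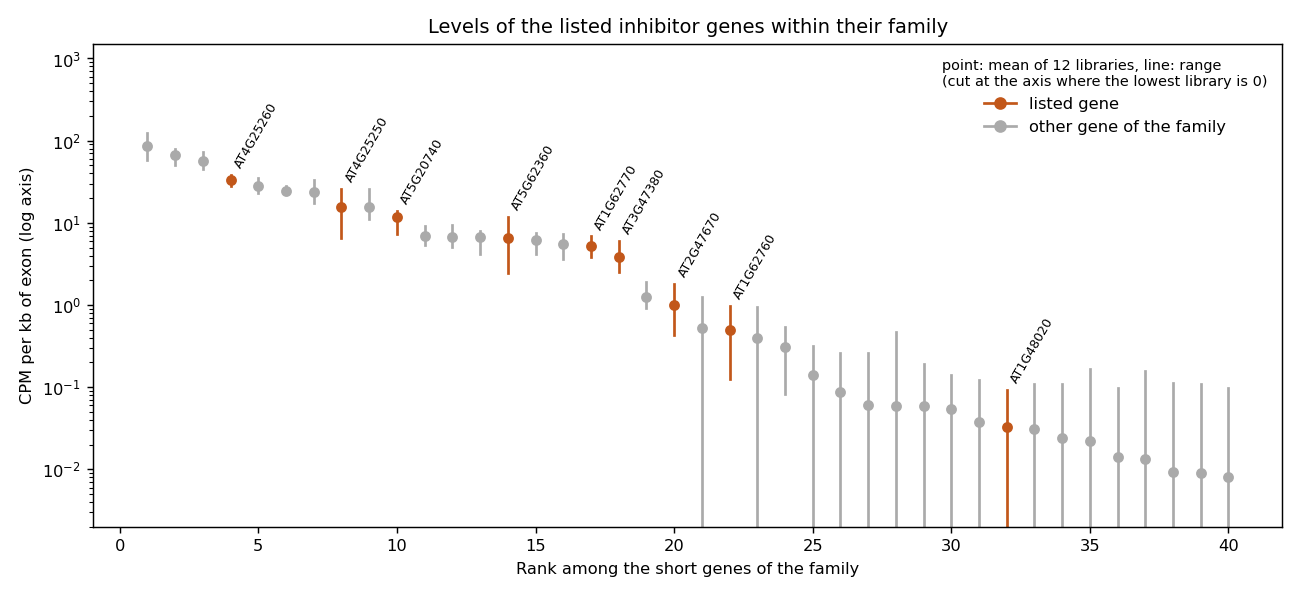
Level per kb of exon (CPM per kb, log axis) of the short inhibitor genes with at least 1 count, ranked by their mean over 12 libraries; points are means, lines are the library ranges and the listed genes are coloured. The listed genes span the ranks from AT4G25260 at 33.5 to AT1G48020 at 0.0328 CPM per kb, and the 37 genes with no count are not drawn.

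AT4G25250 (chromosome 4, 12934562 to 12935373, plus strand) and AT4G25260 (12935710 to 12936658, minus strand; positions here are those of the files) face each other with 336 bases between them and no gene in between. AT1G62770 and AT1G62760 lie on the minus strand of chromosome 1 with 7373 bases and 1 gene between them. Of the 10 genes, only AT1G62770 has 2 exons, and the exons of none overlap those of another gene on either strand. Aligned coding sequences were 35.2 to 62.3% identical between pairs, with a median of 48.5%. The most alike were the pollen inhibitors AT1G48020 and AT3G17220. The neighbours AT4G25250 and AT4G25260 shared 53.4% of bases, and AT4G25250 was closest to AT5G62360 with 56.3%. None has a copy elsewhere in the genome at 95% identity or more.

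AT4G25250, an inhibitor linked to growth of dark-grown hypocotyls, was low in all 3 isoxaben-treated Col-0 libraries. Its level was 15.0, 15.3 and 20.9 CPM in Col-0 with DMSO and 5.79, 5.33 and 7.46 CPM in Col-0 with isoxaben. In ixr1-1 it was 13.8, 11.12 and 11.3 CPM with DMSO and 17.8, 11.3 and 17.5 CPM with isoxaben. Every treated Col-0 library was below every library of the other groups, while the ixr1-1 groups overlapped each other. The means were 17.0 ± 3.3, 6.20 ± 1.12, 12.1 ± 1.5 and 15.5 ± 3.6 CPM (SD, n = 3 each) in the same order of groups. Counts behind these values summed to 835, 260, 467 and 621 per group.

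The log2 difference of AT4G25250 between isoxaben and DMSO in Col-0, on which the gene was selected, was -1.47 ± 0.20 (SE), a level 2.77-fold lower. In ixr1-1 the same difference was 0.38 ± 0.19 and did not pass the test (edgeR's quasi-likelihood test, Benjamini-Hochberg adjusted p = 1, unadjusted p = 0.0666). The difference between these effects was 1.85 ± 0.28. With DMSO the gene was -0.53 ± 0.18 in ixr1-1 relative to Col-0, and with isoxaben 1.32 ± 0.20. The last 3 values contain the Col-0 libraries that selected the gene and were not tested.

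**Figure D2:**
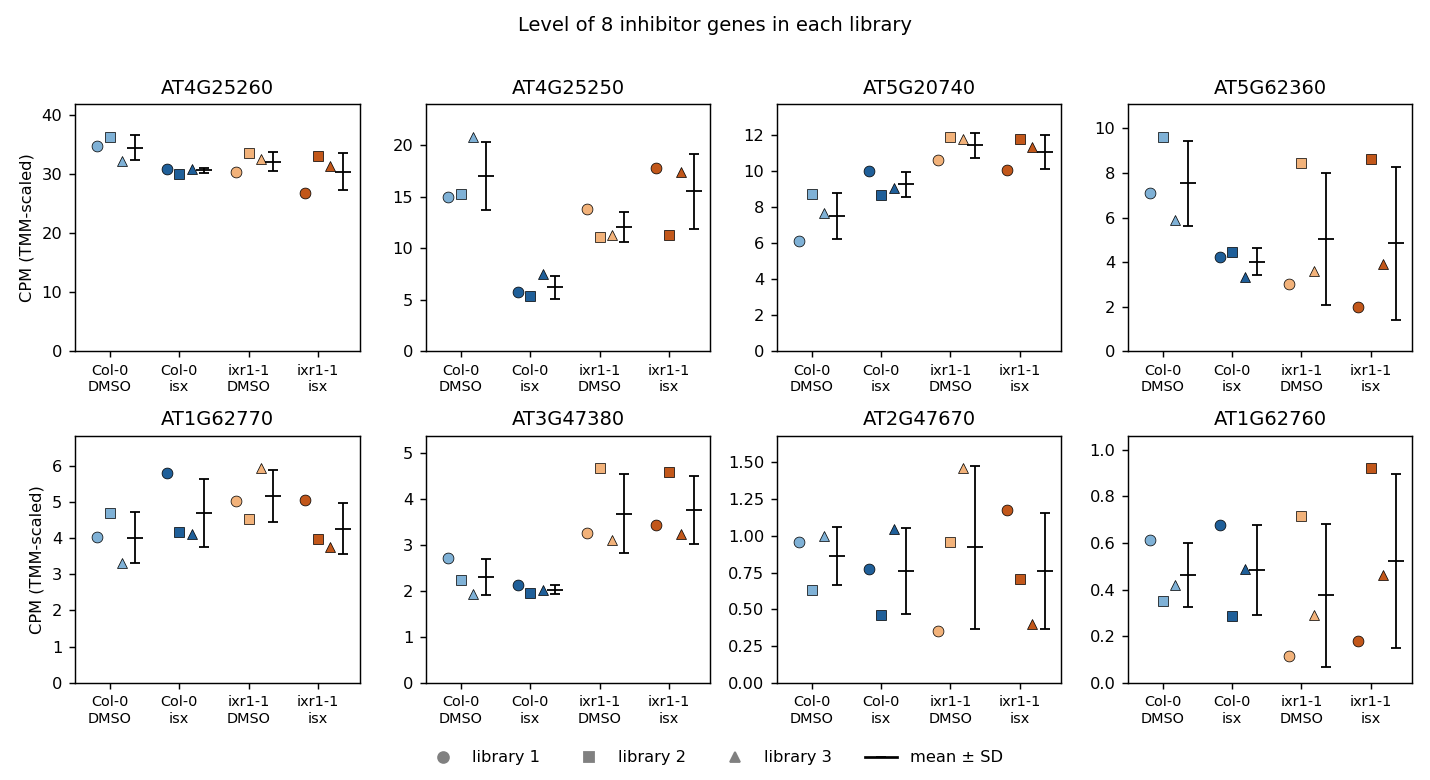
Level (CPM scaled by TMM factors) of the 8 inhibitor genes with counts in every library, by group (isx, isoxaben), with 1 symbol per library and the mean ± SD of 3 libraries beside them; axes start at 0 and differ between genes. AT4G25250 lies at 5.33 to 7.46 CPM in treated Col-0 and at 11.12 CPM or more in all other libraries, and AT5G62360 is high in the ixr1-1 libraries numbered 2.

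Leaving out AT4G25250, by which the list was drawn, none of the other 6 tested inhibitor genes passed an adjusted p of 0.05 for isoxaben against DMSO in Col-0 with edgeR, DESeq2 or limma-voom. Over the 20379 tested genes 0.780% passed with edgeR, 0.613% higher and 0.167% lower. Of the 6, 2 had an unadjusted p below 0.05 with edgeR, as did 1387 of the 20379 tested genes.

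AT4G25260, the convergent neighbour of AT4G25250 and an inhibitor of a root and seedling methylesterase, was the steadiest member. It stood at 34.8, 36.3 and 32.1 CPM in Col-0 with DMSO and 30.8, 30.0 and 30.8 CPM with isoxaben. In ixr1-1 it stood at 30.2, 33.5 and 32.4 CPM with DMSO and 26.8, 32.9 and 31.4 CPM with isoxaben. The Col-0 groups did not overlap, with treated libraries lower by a small margin, and the ixr1-1 groups did. The log2 difference in Col-0 was -0.17 ± 0.08 (unadjusted p = 0.0469, edgeR adjusted p = 0.72), against -1.47 for AT4G25250 across 336 bases. In ixr1-1 it was -0.08 ± 0.08 (edgeR adjusted p = 1).

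AT5G62360 (chromosome 5, 25040649 to 25041462, plus strand), the member closest in sequence to AT4G25250, varied widely between libraries. Its level was 7.09, 9.63 and 5.87 CPM in Col-0 with DMSO and 4.25, 4.47 and 3.35 CPM with isoxaben. All treated Col-0 libraries were below all mock ones. The log2 difference was -0.89 ± 0.51 and did not pass (edgeR adjusted p = 0.91). It passed in 2 of 22 alternative settings. With replicates blocked by flask, taking libraries of equal number as 1 flask, it was -0.91 with an edgeR adjusted p of 0.0013. No label says that a number marks a flask. With only the Col-0 groups in the fit it was -0.88 with an edgeR adjusted p of 0.035, and the spread then did not include ixr1-1, where the gene ran from 1.99 to 8.64 CPM.

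In ixr1-1 the libraries numbered 2 carried the high values of AT5G62360 in both treatments, 8.45 CPM with DMSO and 8.64 CPM with isoxaben. The other 4 ixr1-1 libraries lay between 1.99 and 3.90 CPM. AT3G47380 and AT1G62760 were also highest in the ixr1-1 library numbered 2 of each treatment, as were AT4G25260 and AT5G20740 by smaller margins. AT4G25250 was highest in the libraries numbered 1. The treatment difference of AT5G62360 in ixr1-1 was -0.17 ± 0.52 (edgeR adjusted p = 1), and ran from -0.87 without the isoxaben library numbered 2 to 0.57 without the DMSO one.

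The other tested genes showed no treatment difference past the threshold in Col-0. AT5G20740, known for blocking organ formation when overexpressed in the shoot meristem, had a log2 difference of 0.29 ± 0.13 (unadjusted p = 0.0332, edgeR adjusted p = 0.65). AT1G62770, at 3.302 to 5.94 CPM over the 12 libraries, had one of 0.21 ± 0.19 (edgeR adjusted p = 1). AT3G47380 stood at -0.18 ± 0.23 and AT2G47670 at -0.23 ± 0.44, both with an edgeR adjusted p of 1.

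In ixr1-1, 0 of the 7 tested inhibitor genes passed the threshold with edgeR, DESeq2 or limma-voom, and none had an unadjusted p below 0.05 with edgeR. The background was 0% of 20379 genes with each of these tools, and 742 genes had an unadjusted p below 0.05 with edgeR, 454 with DESeq2 and 803 with limma-voom. The log2 differences of the members ran from -0.39 ± 0.46 for AT2G47670 to 0.38 ± 0.19 for AT4G25250.

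In the comparison of the treatment effects between genotypes, none of the 6 inhibitor genes other than AT4G25250 passed with edgeR, DESeq2 or limma-voom, and none had an unadjusted p below 0.05 with edgeR. The background was 0.314%, with 0.0589% higher and 0.255% lower in ixr1-1, and 971 of 20379 genes had an unadjusted p below 0.05 with edgeR. The smallest unadjusted p of the 6 was that of AT5G20740, with a difference of -0.34 ± 0.18 (unadjusted p = 0.0665, edgeR adjusted p = 1). AT5G62360 had the widest error, 0.72 ± 0.73, and AT1G62770 stood at -0.48 ± 0.27.

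**Figure D3:**
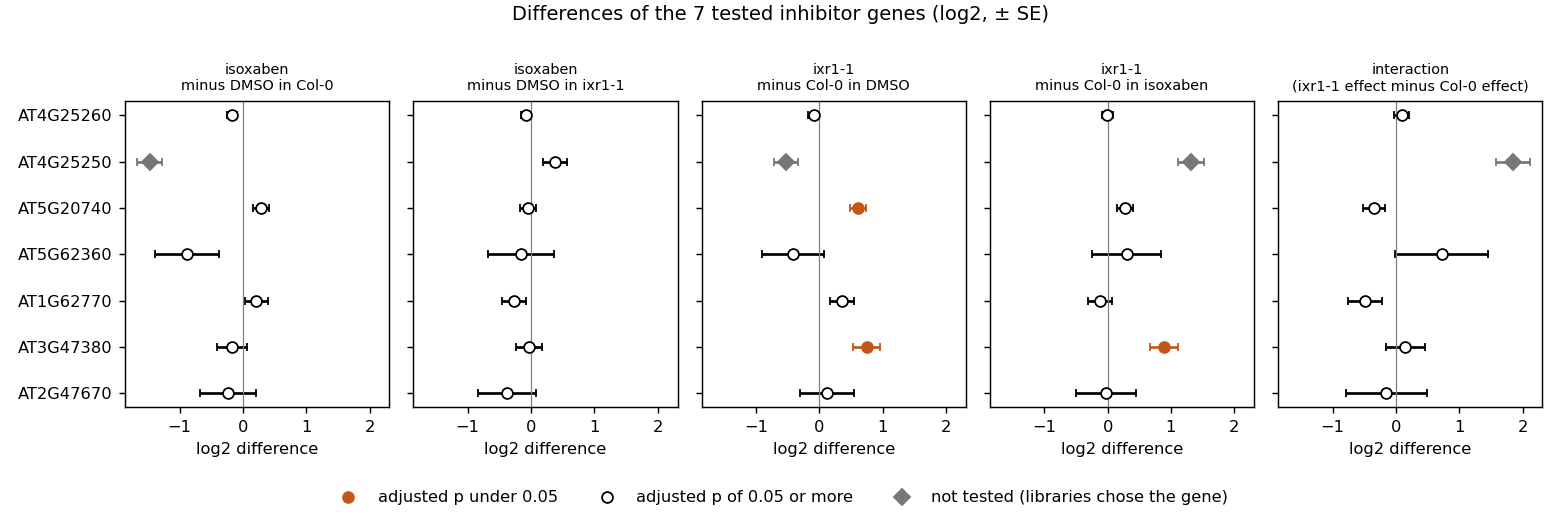
Log2 differences ± SE of the 7 tested inhibitor genes in the 5 comparisons; filled circles passed an adjusted p of 0.05, open circles did not, and grey diamonds mark values of AT4G25250 that were not tested because its Col-0 libraries selected it. AT5G20740 and AT3G47380 are the circles that passed, at 0.62 and 0.75 in DMSO and, for AT3G47380, 0.90 in isoxaben.

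Between genotypes, 2 inhibitor genes were higher in ixr1-1 with DMSO, AT5G20740 and AT3G47380, and none was called lower. These 2 of 6, AT4G25250 left out, stand against 17.2% of all tested genes, of which 9.79% were higher and 7.42% lower. With isoxaben 1 of the 6 was called, AT3G47380, which was higher, against 12.8% of all genes, 6.92% higher and 5.85% lower. This balance depends on the scaling: 1996 genes were higher and 1513 lower with DMSO, and 2716 and 926 by library size alone. With isoxaben these counts were 1410 and 1192, and 2280 and 721 by library size alone. Nothing particular to the inhibitors is read from these counts.

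AT5G20740 (chromosome 5, 7025686 to 7026532, minus strand) stood at 6.14, 8.72 and 7.70 CPM in Col-0 with DMSO and at 10.6, 11.9 and 11.8 CPM in ixr1-1 with DMSO. With isoxaben it stood at 10.04, 8.71 and 9.07 CPM in Col-0 and at 10.05, 11.8 and 11.4 CPM in ixr1-1. The genotypes were well apart with DMSO and nearly touched with isoxaben. With DMSO the gene was 1.53-fold higher in ixr1-1, a log2 difference of 0.62 ± 0.13 (edgeR adjusted p = 0.0019), and it passed in each of 21 alternative settings of the analysis, with a highest adjusted p of 0.017. With isoxaben the difference was 0.27 ± 0.12 and did not pass (edgeR adjusted p = 0.16).

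AT3G47380 (chromosome 3, 17457795 to 17458570, plus strand), one of the inhibitors linked to resistance against a fungal pathogen, was higher in ixr1-1 under both treatments. Its level was 2.73, 2.25 and 1.94 CPM in Col-0 with DMSO and 3.27, 4.68 and 3.12 CPM in ixr1-1 with DMSO. With isoxaben it was 2.12, 1.95 and 2.02 CPM in Col-0 and 3.44, 4.604 and 3.24 CPM in ixr1-1. No ixr1-1 library fell to the Col-0 range in either treatment, and the ixr1-1 libraries numbered 2 were the highest. The gene was 1.68-fold higher with DMSO, a log2 difference of 0.75 ± 0.21 (edgeR adjusted p = 0.020), and 1.86-fold higher with isoxaben, 0.90 ± 0.22 (edgeR adjusted p = 0.012).

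The calls of AT3G47380 rested on few counts, 109 and 158 per group with DMSO and 85 and 152 with isoxaben. With DMSO the adjusted p (edgeR) rose to 0.052 and 0.10 without the Col-0 libraries numbered 2 and 3 and to 0.25 without the ixr1-1 library numbered 2, where the difference was 0.48. It was 0.055 with DESeq2. With isoxaben it rose to 0.053 without the Col-0 library numbered 2 and to 0.078 without the ixr1-1 library numbered 2, where the difference was 0.72. Without both ixr1-1 libraries numbered 1, the lowest in seed storage RNA, the differences were 0.83 and 0.95 and both passed (edgeR adjusted p = 0.023 and 0.019).

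The remaining members did not pass between genotypes. AT1G62770, an inhibitor studied with root methylesterases, was 4.01 ± 0.70 CPM in Col-0 and 5.17 ± 0.71 CPM in ixr1-1 with DMSO, a log2 difference of 0.36 ± 0.19 (edgeR adjusted p = 0.21). With isoxaben its difference was -0.13 ± 0.19 (edgeR adjusted p = 0.73). AT4G25260 differed by -0.09 ± 0.08 with DMSO and -0.0021 ± 0.081 with isoxaben. AT5G62360 differed by -0.42 ± 0.49 with DMSO and 0.30 ± 0.54 with isoxaben.

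AT2G47670, which acts on mucilage pectin in the seed coat, was low and rested on few counts. It had 42 and 31 counts in the Col-0 groups and 38 and 29 in the ixr1-1 groups, DMSO before isoxaben, and ran from 0.350 to 1.46 CPM over the libraries. All groups overlapped. Its log2 difference between genotypes was 0.12 ± 0.43 with DMSO (edgeR adjusted p = 0.89) and -0.03 ± 0.47 with isoxaben (edgeR adjusted p = 0.98), in the same libraries in which seed storage genes were far apart.

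The 3 genes without a test had few or no counts. AT1G62760, an inhibitor linked to defence, had 9, 5 and 8 counts in Col-0 with DMSO and 7, 5 and 7 with isoxaben. In ixr1-1 it had 1, 15 and 3 counts with DMSO and 2, 13 and 7 with isoxaben. The groups overlapped, and in ixr1-1 most counts came from the libraries numbered 2. AT1G48020, an inhibitor of the pollen tube, had 5 counts in all, 1 in each of 5 libraries. AT3G17220, its partner in pollen, had 0 of 170532995 counts, which allows a level of up to 0.0176 CPM, for counting error only.

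The pattern of AT4G25250 over the 12 libraries was compared with that of 18289 other genes of sufficient level by the correlation of log2 CPM, as a description, since all share the libraries. The 5 most alike were ARP1 (AT3G54770) with r = 0.94, AT4G13620 with 0.92, AT5G24100 with 0.91, AT1G05650 with 0.90 and AT4G31320 with 0.90. ARP1 had 15.4 ± 2.1, 8.98 ± 0.85, 12.5 ± 2.0 and 14.8 ± 1.6 CPM in Col-0 with DMSO and isoxaben and in ixr1-1 with DMSO and isoxaben. AT1G05650 had 17.6 ± 2.1, 7.74 ± 0.33, 15.5 ± 1.5 and 14.5 ± 1.6 CPM in the same order. Inhibitors outside the list were not read here. Among the listed ones of sufficient level, the one most like AT4G25250 was AT3G47380 with r = 0.30, at rank 2694. The neighbour AT4G25260 had r = 0.14 at rank 5683, and AT1G62770 had the lowest, -0.33 at rank 16325.

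The rest of the inhibitor family and the genes that act with it on pectin were read from lists. Of 14 other short inhibitor genes with enough counts, none passed for isoxaben in Col-0 with edgeR or limma-voom. With DESeq2 1 passed, AT5G62340. With edgeR 2 had an unadjusted p below 0.05, as did 1387 of the 20379 tested genes. AT5G62340 had the smallest unadjusted p. It stood at 12.2 ± 2.9 CPM with DMSO and 19.3 ± 3.0 CPM with isoxaben, a log2 difference of 0.66 ± 0.16 (edgeR adjusted p = 0.086). The gene passed in 5 of 22 alternative settings, among them the replicate blocks by flask and by number (edgeR adjusted p = 0.037 and 0.032). The median difference of the 14 was -0.15, against -0.0014 over all tested genes. Between genotypes, AT2G47050 was higher in ixr1-1 with DMSO at 2.21 ± 0.67 and with isoxaben at 2.32 ± 0.65 (edgeR adjusted p = 0.028 and 0.024), with mean levels of 0.132 to 0.730 CPM. AT4G12390, the second highest gene of the family, was lower by -0.43 ± 0.08 and -0.45 ± 0.08 (edgeR adjusted p = 0.0011 and 0.0013), and AT5G62340 was lower with isoxaben at -0.69 ± 0.16 (edgeR adjusted p = 0.013).

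The targets of the inhibitors are the pectin methylesterases, of which 24 of 31 listed were tested. In Col-0, 2 fell with isoxaben and none rose, against 0.167% lower and 0.613% higher of all tested genes. RHS12 (AT3G10710), named for its root hair expression, had a log2 difference of -0.85 ± 0.16 (edgeR adjusted p = 0.0081), and PME2 (AT1G53830) one of -0.59 ± 0.13 (edgeR adjusted p = 0.036). RHS12 went from 10.3 ± 0.05 to 5.85 ± 1.34 CPM and PME2 from 25.0 ± 4.5 to 16.7 ± 1.9 CPM. RHS12 passed in 19 of 22 alternative settings and not without the Col-0 DMSO library numbered 3 or the Col-0 isoxaben library numbered 2 or 3, with an edgeR adjusted p of at most 0.11. PME2 passed in 12 of 22, with an adjusted p of at most 0.22 in the others. Those were limma-voom, the Col-0 groups alone, and fits without the Col-0 DMSO library numbered 2 or 3, any 1 treated Col-0 library, the ixr1-1 DMSO library numbered 2, the ixr1-1 isoxaben library numbered 1 or both ixr1-1 libraries numbered 1. The root hair gene SHV2 (AT5G49270) of the root marker list also fell in Col-0, by 0.91 on the log2 scale (edgeR adjusted p = 0.0051). The other 7 root markers did not pass, among them the root hair genes EXPA7, EXPA18, LRX1 and PRP3. With edgeR 2 of the 8 root markers had an unadjusted p below 0.05, as did 1387 of the 20379 tested genes. The median difference of the 8 was -0.21, against -0.0014 over all tested genes. The part of root hair cells in the values of AT4G25250 was not tested. In ixr1-1 none of the 24 methylesterases passed with edgeR, DESeq2 or limma-voom. With edgeR 2 had an unadjusted p below 0.05, as did 742 of the 20379 tested genes. RHS12 was 1 of them and was lower there too, at -0.45 ± 0.16 (edgeR unadjusted p = 0.0094), while AT5G04970 was higher at 0.35 ± 0.13. The effect on RHS12 differed between genotypes by 0.395 ± 0.223, which did not pass. For this difference none of the 24 passed with edgeR or limma-voom. With DESeq2 1 passed, as did 104 of the 20379 tested genes. AT5G04970 differed by 0.87 ± 0.19 (edgeR adjusted p = 0.052) and passed in 8 of 21 alternative settings, DESeq2 among them. In Col-0 AT5G04970 stood at -0.52 ± 0.13 with isoxaben (edgeR adjusted p = 0.082). PME2 differed between genotypes by 0.69 ± 0.18 (edgeR adjusted p = 0.18).

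Between genotypes 7 of the 24 methylesterases were higher in ixr1-1 with DMSO and 7 with isoxaben, and none was lower. Over all tested genes 9.79% were higher and 7.42% lower with DMSO, and 6.92% and 5.85% with isoxaben. With DMSO the differences were 0.97 ± 0.12 for AT2G26440, 0.77 ± 0.11 for AT3G43270, 1.54 ± 0.20 for ATPMEPCRB (AT4G02330) and 1.25 ± 0.24 for AT3G10720, with edgeR adjusted p of 4.4e-05, 6.4e-05, 0.00059 and 0.0066. With isoxaben they were 0.81 ± 0.12 for AT2G26440, 0.66 ± 0.11 for AT3G43270 and 1.32 ± 0.20 for ATPMEPCRB (edgeR adjusted p = 0.00049, 0.00057 and 0.0025). PME2 was higher by 0.62 ± 0.13 with isoxaben (edgeR adjusted p = 0.0046). The median over the 24 was 0.11 with DMSO and 0.14 with isoxaben, against -0.001 and 0.0035 over all tested genes.

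**Figure D4:**
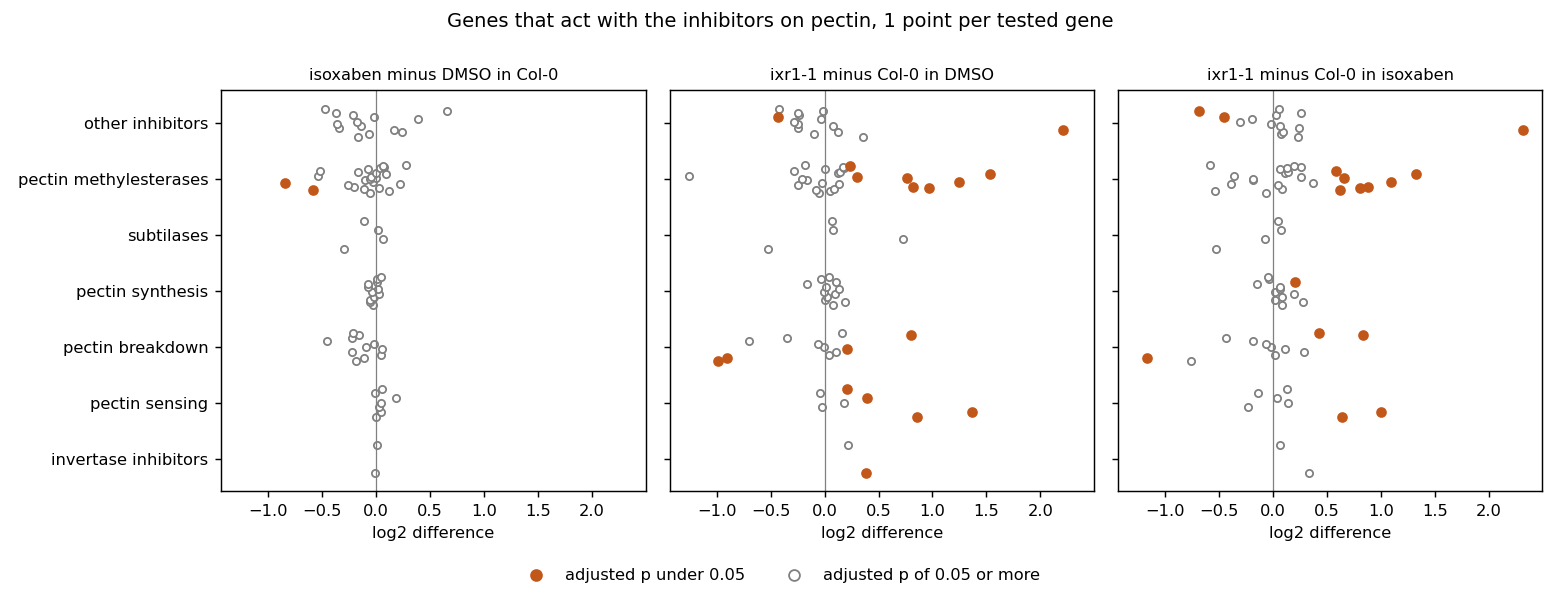
Log2 differences of the tested genes of 7 lists in 3 comparisons, 1 point per gene, with points filled where the adjusted p was under 0.05. In Col-0 the filled points are 2 methylesterases that fell, and between genotypes 7 of 24 methylesterases are filled and higher in ixr1-1 in each treatment.

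Genes further along the pathway were read for isoxaben in Col-0. None of 4 subtilases that process methylesterases, 12 genes of homogalacturonan synthesis, 11 of its breakdown, 7 of pectin sensing and 2 inhibitors of invertase passed with edgeR, DESeq2 or limma-voom. With edgeR 1 of them, BAK1, had an unadjusted p below 0.05, as did 1387 of the 20379 tested genes. Between genotypes 4 of the 7 sensing genes were higher in ixr1-1 with DMSO and 2 with isoxaben, and none was lower. Over all tested genes 9.79% were higher and 7.42% lower with DMSO, and 6.92% and 5.85% with isoxaben. With DMSO the sensing genes WAK2, WAK1, BAK1 and THE1 passed, at 1.37 ± 0.13, 0.85 ± 0.16, 0.40 ± 0.08 and 0.20 ± 0.06 (edgeR adjusted p = 8.2e-06, 0.0044, 0.0024 and 0.034). With isoxaben WAK2 and WAK1 passed, at 1.01 ± 0.13 and 0.64 ± 0.16 (edgeR adjusted p = 0.00026 and 0.028). WAK kinases bind pectin in the wall. Of 12 synthesis genes none passed with DMSO and 1 was higher with isoxaben, GAUT14 at 0.21 ± 0.07 (edgeR adjusted p = 0.042). GAUT14 passed in 10 of 21 alternative settings. None of the 4 subtilases passed with edgeR. SBT3.5 stood at -0.53 ± 0.18 with DMSO and -0.53 ± 0.19 with isoxaben (edgeR adjusted p = 0.079 and 0.096), and passed with DESeq2 and limma-voom in both. Of 11 breakdown genes, 2 were higher and 2 lower with DMSO, and 2 higher and 1 lower with isoxaben. These counts stand against the same shares of all tested genes. With DMSO, AT1G48100 was lower at -0.99 ± 0.24 and PMR6 (AT3G54920) higher at 0.21 ± 0.06 (edgeR adjusted p = 0.019 and 0.034). With isoxaben, AT5G23870 was higher at 0.42 ± 0.11 (edgeR adjusted p = 0.016). PGIP2, an inhibitor of fungal polygalacturonases, was higher by 0.80 ± 0.18 with DMSO and 0.84 ± 0.18 with isoxaben, while the polygalacturonase PGAZAT was lower by -0.91 ± 0.30 and -1.17 ± 0.32 (edgeR adjusted p = 0.0060, 0.0088, 0.048 and 0.024). The invertase inhibitor C/VIF1, of the same protein superfamily, was higher by 0.38 ± 0.13 with DMSO (edgeR adjusted p = 0.048), and 0.34 ± 0.13 with isoxaben did not pass (edgeR adjusted p = 0.096). Over 21 alternative settings AT1G48100 passed in 17 with DMSO, PMR6 in 16 with DMSO and AT5G23870 in 19 with isoxaben. THE1 passed in 16 with DMSO, WAK1 in 15 with isoxaben, PGAZAT in 9 with DMSO and 18 with isoxaben, C/VIF1 in 7 with DMSO and AT5G62340 in 19 with isoxaben. AT2G47050 passed in 16 of 19 with DMSO and 15 of 19 with isoxaben.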

How the data were processed

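The authors deposited raw counts per gene, 1 file for each of the 12 libraries, as a featureCounts table per the file headers. The submitters' processing notes list featureCounts 1.4.6, STAR 2.4.1, FastQC 11.1 and bcl2fastq with no order. Not given in the sources used here are the strand setting of the counting, the read layout, the annotation and the genome build. On TAIR10.1, 97.9% of 120759 introns implied by the files' exons had GT and AG at their ends.

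Genes kept by filterByExpr were scaled by TMM factors and tested with edgeR 4.0.16 (quasi-likelihood, robust, R 4.3.3) in 1 model over the 12 libraries. The SE of a log2 difference is its absolute size divided by the square root of the F statistic of the edgeR test. AT4G25250 enters no count of members called in comparisons that use the Col-0 libraries, and its SE there is a description only, since those libraries selected it. P-values were adjusted by Benjamini-Hochberg over 20379 genes in each of 5 comparisons, with a threshold of 0.05. The fit was also run on simulated counts of independent libraries without flask pairs, and the outcome is not used here. Replicates differed beyond sampling noise (chi-square per degree of freedom 2.78 to 6.80).

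The members and the gene lists were chosen with earlier results of these data known. Of each list, up to 4 genes past the threshold are named in order of adjusted p, or the 1 of lowest unadjusted p, though not all are printed. Likeness to AT4G25250 used log2 CPM (prior count 2) of genes with a mean of at least 1. Copies were sought with blastn 2.17.0. Coding sequences were aligned with Biopython 1.88, in place of a planned comparison of proteins.

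Alternatives were other scaling (size factors of DESeq2, or library size only), other filters (none, or 1 CPM in at least 6 libraries), other tools (DESeq2 1.42.0, limma-voom of limma 3.58.1), the compared groups alone, replicate blocks by number or by flask, and leaving out single libraries or both ixr1-1 libraries numbered 1.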

Additional observations from a re-analysis of the deposited data

How the results depend on the processing

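Of 744 values of a member's difference under an alternative, 728 kept their side of the threshold and, where not called, moved by no more than 1 SE. The untested values of AT4G25250 were judged by their sign and a move of 1 SE alone. Among values called in neither fit, 27 changed sign, in 11 of 35 pairs of a member and a comparison. The largest main difference among those pairs was 0.302 in absolute size. No value past the threshold changed sign, 6 lost the threshold, 2 gained it and 8 moved without being called. Leaving AT4G25250 out of the counts that use Col-0, members called for isoxaben in Col-0 were 1 in place of 0 with only the compared groups and with the replicate block by flask. The gene was AT5G62360 (-0.91, edgeR adjusted p = 0.0013 with that block). Between genotypes with DMSO, 1 in place of 2 was called with DESeq2, and 1 to 2 when 1 library was left out. With isoxaben it was 0 to 1 in place of 1 when 1 library was left out. These losses were of AT3G47380, and their cause was not tested. Of the other inhibitor genes, AT5G62340 passed for isoxaben in Col-0 with the block by flask and by number (edgeR adjusted p = 0.037 and 0.032). The main fit did not take the numbers as pairs, since no label says that a number marks a flask. Deviations of same-numbered libraries from their group means correlated at 0.03, 0.14 and 0.21 in Col-0 and at 0.23, 0.31 and 0.03 in ixr1-1. Between different numbers the correlations ran from -0.16 to 0.03 in Col-0 and from -0.31 to 0.11 in ixr1-1. Whether the numbers mark the split flasks was not settled by these values. Each library correlated best with its own number in Col-0, but neither ixr1-1 library numbered 3 did. Over all genes, calls for isoxaben in Col-0 were 159, with 243 for only the compared groups, 367 with the block by flask, and 77 and 79 without the Col-0 DMSO library numbered 3 and the isoxaben library numbered 2. In ixr1-1 they were 0, with 13 under the block by flask and 1 by number. For the interaction they were 64, from 22 without the ixr1-1 DMSO library numbered 2 to 180 with the block by flask. Between genotypes they fell at the lowest from 3509 to 2281 and from 2602 to 1549, without the ixr1-1 library numbered 2 of that treatment. Over the 12 libraries AT2G47670 had 140 counts, AT1G62760 82, AT1G48020 5 and AT3G17220 0.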
